A study of Mus musculus with 12 samples.

Results

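The members described here are 9 genes that mark oligodendrocyte progenitors and the proneural type of glioma, namely Cspg4, Matn4, Neu4, C1ql1, Olig1, Olig2, Nkx2-2, Gpr17 and Dll3. They were taken by name, with every probe annotated to them, which gave 14 probes out of 45135 on the array and 9 genes out of 19031 with a named probe. Expression was measured on Illumina bead arrays, on which each probe's brightness stands for the amount of its transcript, in brain gliomas of 12 C57BL/6 mice, 1 array per animal. The 6 knockout tumours came from mice with Cre (Nestin-CreERT2;Tlx flox/flox;Nestin-Tva, CRE+) and the 6 intact tumours from littermates of the same line without Cre (CRE-). Both groups were homozygous for the floxed Tlx allele, carried Nestin-Tva, which puts the receptor of an avian retrovirus on Nestin-expressing cells, and received tamoxifen 2.5 weeks after their tumours were started. Tumours were collected when neurological symptoms were severe. Cre acted only where the Nestin promoter was active, so cells of the tumour that never used it kept Tlx, and the groups differ in carriage of Cre as well as in Tlx. The oncogene that started the tumours is not stated in the sources used here. The labels number the Cre transgene differently from one animal to the next, while the design text names Nestin-CreERT2 for all.

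Oligodendrocyte progenitors are the dividing cells of the brain that give rise to myelinating oligodendrocytes. They carry the chondroitin sulfate proteoglycan NG2 and the receptor PDGFRA at their surface and are held in their lineage by the transcription factors Olig2 and Sox10, and as they commit to differentiate they pass through a stage marked by Gpr17. The proneural type of glioma is known for expressing many genes of this lineage, and Olig2 is used as a marker of it. Tlx, the older name of Nr2e1, is a nuclear receptor known for keeping neural stem cells in an undifferentiated, dividing state.

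Olig1, Olig2, Tcf4 and Tcf12 belong to a family of transcription factors (basic helix-loop-helix) that bind the E-box, CANNTG, a motif that reads the same on both strands. The promoters of 4 members on which the results turn are printed here so that the letters upstream of them can be read beside their values. Cspg4 and Nkx2-2 had the smallest p-values of the 9, Cspg4 and Matn4 varied together across the tumours, and so did Neu4 with C1ql1. Each is the 250 bases before an annotated transcription start, 5′ to 3′ on the strand of the gene, taken from RefSeq on GRCm38.p6, and capitals mark the E-boxes. The windows are chr9:56864854-56865103 on the plus strand for Cspg4, chr2:164405161-164405410 on the minus strand for Matn4 (the outermost of 2 annotated starts), chr1:94020243-94020492 on the plus strand for Neu4 and chr2:147186403-147186652 on the minus strand for Nkx2-2 (a start that is not at the gene's annotated end).
Cspg4: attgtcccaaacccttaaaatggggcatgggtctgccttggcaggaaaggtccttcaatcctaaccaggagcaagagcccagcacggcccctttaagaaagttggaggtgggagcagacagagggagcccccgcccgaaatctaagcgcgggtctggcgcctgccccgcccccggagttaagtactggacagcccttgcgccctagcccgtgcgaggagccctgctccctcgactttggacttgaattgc
Matn4: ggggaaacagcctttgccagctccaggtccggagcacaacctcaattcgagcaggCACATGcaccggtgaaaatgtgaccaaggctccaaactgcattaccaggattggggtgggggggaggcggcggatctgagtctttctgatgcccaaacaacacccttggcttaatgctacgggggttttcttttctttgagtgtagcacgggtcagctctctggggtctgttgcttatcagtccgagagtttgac
Neu4: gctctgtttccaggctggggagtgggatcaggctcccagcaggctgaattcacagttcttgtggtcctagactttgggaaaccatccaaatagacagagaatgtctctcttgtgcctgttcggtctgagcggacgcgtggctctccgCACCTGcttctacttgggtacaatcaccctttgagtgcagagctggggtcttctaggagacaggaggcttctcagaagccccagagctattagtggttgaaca
Nkx2-2: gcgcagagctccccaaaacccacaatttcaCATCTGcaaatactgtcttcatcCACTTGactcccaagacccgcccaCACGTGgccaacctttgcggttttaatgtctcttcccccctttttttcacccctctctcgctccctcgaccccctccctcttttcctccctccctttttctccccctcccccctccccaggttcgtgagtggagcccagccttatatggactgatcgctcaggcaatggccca
The Nkx2-2 window held 3 E-boxes, CATCTG at 220, CACTTG at 197 and CACGTG at 173 bases upstream of the start. The Matn4 window held 1 (CACATG, 195 bases upstream), the Neu4 window 1 (CACCTG, 103 bases upstream) and the Cspg4 window 0. The window of the other annotated Matn4 start, not printed here, held 0. Of all 32851 promoter windows of this length, 66.2% held at least 1 E-box and 12.2% held 3 or more, so 1 match is common. Promoter windows were read for only 6 of the 9 members, with 7 windows, of which 4 held an E-box. No window of Olig1, C1ql1 or Gpr17 was read, so the count does not cover them. These are matches of letters only, and a window without one says nothing about binding elsewhere.

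The arrays were alike in depth. Median signal was 135 to 161 intensity units in knockout tumours and 135 to 155 in intact tumours, and 50.8% to 54.8% of probes were detected per array. The number of arrays limits the precision of every difference. Nr2e1, the targeted gene, had a mean log2 intensity of 5.55 ± 0.54 in knockout tumours against 6.14 ± 0.44 in intact tumours (SD of 6). The difference was -0.58 (SE 0.26, limma adjusted p = 0.405), and the groups overlapped. Animals of the knockout group were older when collected, at 62.2 ± 10.1 days against 44.8 ± 5.08 days in the intact group (SD, n = 6 each, exact two-sided permutation p = 0.00649). Ages ran from 48 to 79 days in the knockout group and from 38 to 51 days in the intact group. With so little overlap, a fit with age as a covariate cannot cleanly separate age from group. Because collection followed severe symptoms, age is also an outcome here. Group also went along with the place of an array in the deposited table. The first 6 columns held 5 knockout arrays and 1 intact array, and the last 6 held 1 knockout array and 5 intact arrays. No source used here says what this order stands for. Each sample's label also ends in a number or code of unstated meaning. A set of 5 tumours, 3 knockout and 2 intact, shares its leading digits and is called the shared-digit set here. A second set of 3 holds knockout tumours only. The remaining 4 are all intact, and their codes do not all share a form, though those of intact tumours 4 and 6 are alike. A block on these sets therefore compares the groups within the 5 tumours only.

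None of the 9 genes passed the test between knockout and intact tumours, although every one of them averaged higher in knockout tumours. Values are normalized log2 intensities, differences are log2 knockout minus intact, and a gene was called when its adjusted p was below 0.05 (limma, Benjamini-Hochberg over the 14155 genes tested). Of the members 0 of 9 were called, and in the whole fit 2 genes were, 0.0141% of those tested. All 9 differences lay above 0, as did 49.6% of those of all genes tested, and their median was 0.26, where the median of all genes was -0.0026. Unadjusted p was below 0.05 with a higher level in knockout tumours for 2 of 9 members, Cspg4 and Nkx2-2, and for 6.22% of all genes tested. Not 1 member separated the groups completely, which 0.65% of all genes did. The members were read in the same 12 tumours and several of them varied together there, so the count of differences above 0 is not 9 independent observations. In bulk tissue, a change in the number of cells of a type and a change in the RNA per cell cannot be told apart.

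**Figure D1:**
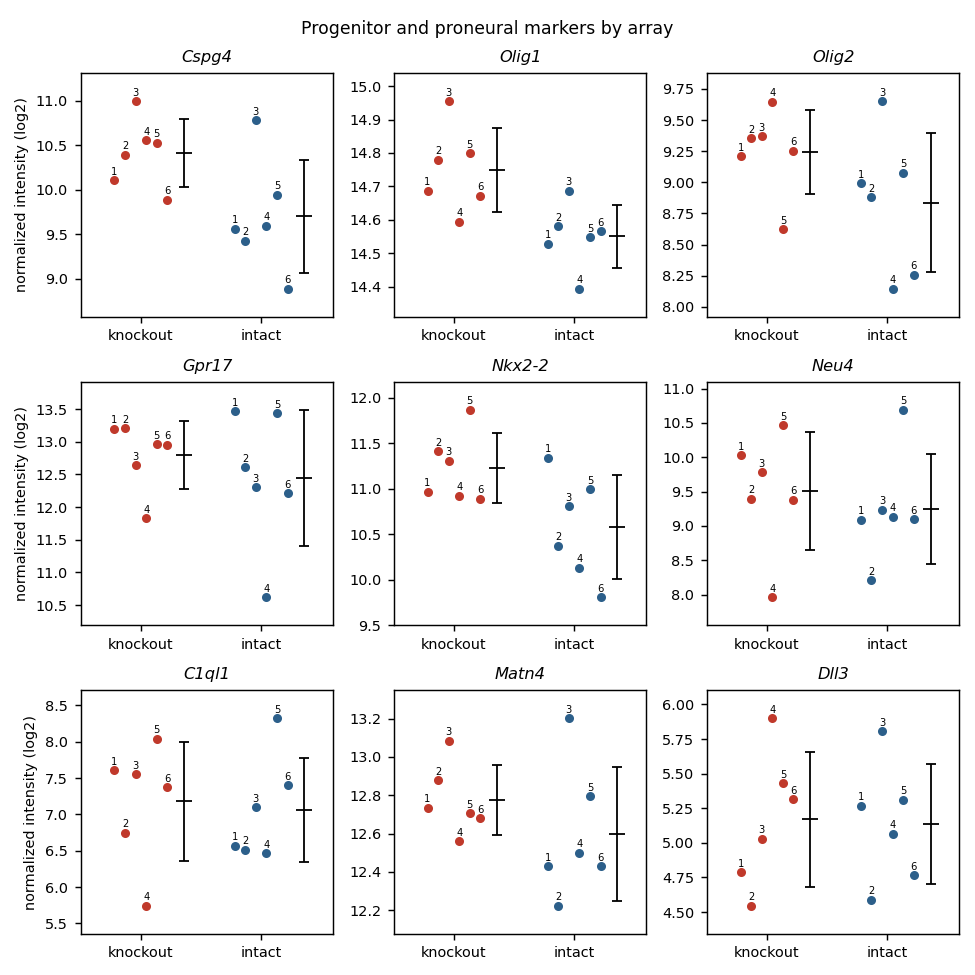
Normalized log2 intensity (vertical axes, 1 panel per gene with its own range) of each member on each array, knockout on the left and intact on the right; points are single tumours with their replicate number, and bars are the mean ± SD of 6. The groups overlap in all 9 panels, and intact tumour 3 stands above the other intact tumours for Cspg4, Olig1, Olig2 and Matn4.

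Cspg4 encodes the NG2 proteoglycan of the progenitor surface, which pericytes of blood vessels carry too. Its single probe (ILMN_2659224, gene on chromosome 9) read 9.89, 10.46 and 10.99 as lowest, median and highest in knockout tumours, against 8.89, 9.58 and 10.78 in intact tumours. Every knockout tumour lay above the intact median and 4 intact tumours lay below every knockout tumour, but intact tumour 3, at 10.78, exceeded 5 of the knockout tumours. The mean was 10.41 ± 0.38 in knockout tumours against 9.70 ± 0.63 in intact tumours (SD of 6), a difference of 0.71 (SE 0.28, 95% interval 0.12 to 1.30), or 1.64-fold (1.09 to 2.47). The unadjusted p of limma was 0.0219 and the adjusted p 0.340. Intact tumour 3 was also the only intact array among the first 6 columns. There the 5 knockout arrays averaged 0.31 log2 units less than it (-0.31), whereas the 1 knockout array among the last 6 columns exceeded its 5 intact neighbours by 0.63. With column position in the fit the difference was 0.16, and within the shared-digit set it was 0.78, so the size of the Cspg4 difference depends on how these arrangements are treated. The other pericyte markers moved both ways, with 4 of 9 differences above 0, a median of -0.11 and 0 called. Their summed intensity ran from 2880 to 8660 in knockout tumours and from 1917 to 7695 in intact tumours, and all 9 passed the detection filter. Rgs5, a regulator of G-protein signalling abundant in pericytes, was detected in 5 of 6 knockout and 6 of 6 intact tumours with a difference of -1.56 (SE 0.37, limma adjusted p = 0.202), and Kcnj8, a potassium channel subunit, had -0.78 (adjusted p = 0.212). Of these markers Acta2 had the highest difference, 0.94 (SE 0.49, limma adjusted p = 0.468). The part of pericytes in the Cspg4 values was not tested.

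Matn4 encodes matrilin-4, an adaptor protein of the extracellular matrix. Its brightest probe (ILMN_2729289, gene on chromosome 2) read 12.56, 12.72 and 13.08 as lowest, median and highest in knockout tumours, against 12.22, 12.47 and 13.20 in intact tumours. All knockout tumours lay above the intact median, 4 intact tumours lay below all of them, and intact tumour 3 was the highest of all 12. The difference was 0.18 (SE 0.17, limma adjusted p = 0.711), or 1.13-fold (0.879 to 1.45). The other probes gave 0.46 (SE 0.26) for ILMN_1215854 and 0.35 (SE 0.22) for ILMN_2913500, with adjusted p of 0.476 and 0.522 in the limma fit over all 28002 probes, where 0.0107% of probes and 0 of the 14 member probes were called. The difference of the brightest probe turned to -0.080 with column position in the fit. Within the first 6 columns it was -0.42, and within the last 6 it was 0.26.

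Neu4 encodes a sialidase, an enzyme that trims sialic acid from glycoproteins and glycolipids. Its brightest probe (ILMN_2716254, gene on chromosome 1) read 7.96, 9.59 and 10.47 as lowest, median and highest in knockout tumours, against 8.21, 9.12 and 10.69 in intact tumours. The lowest value of all 12 was in knockout tumour 4 and the highest in intact tumour 5, so the groups covered much the same range. The difference was 0.26 (SE 0.42, 95% interval -0.64 to 1.16, limma adjusted p = 0.838). The other probes gave 0.18 (ILMN_2686167) and 0.06 (ILMN_2605810). With age at collection as a covariate the brightest probe's difference turned to -0.33, and it was 1.10 within the shared-digit set.

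C1ql1 encodes a secreted protein with a C1q domain, a ligand at the synapse that climbing fibres make on Purkinje cells. Its probe (ILMN_2864659, gene on chromosome 11) read 5.74, 7.47 and 8.04 as lowest, median and highest in knockout tumours, against 6.46, 6.83 and 8.32 in intact tumours. Knockout tumour 4 was again the lowest and intact tumour 5 again the highest. The difference was 0.12 (SE 0.39, 95% interval -0.72 to 0.96, limma adjusted p = 0.929). It turned to -0.47 with age as a covariate, to -0.053 without knockout tumour 5 and to -0.0016 without intact tumour 4, and it was -0.0066 within the first 6 columns. It was 0.85 within the shared-digit set and 0.27 with column position in the fit.

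Among the transcription factors of the lineage, Olig1 was close to the upper end of the scale. Its probe (ILMN_2760105, gene on chromosome 16) read 14.59, 14.73 and 14.95 as lowest, median and highest in knockout tumours, against 14.39, 14.56 and 14.69 in intact tumours. Of the knockout tumours 3 lay above every intact tumour, and 5 intact tumours lay below every knockout tumour. The difference of 0.20 (SE 0.11, 95% interval -0.046 to 0.44) was 1.15-fold, with a limma adjusted p of 0.516. The deposited signals of 21877 to 32912 units approached the highest signal of any probe on each array, 33108 to 42744.

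Olig2 encodes the partner factor that specifies the lineage and lies next to Olig1 on chromosome 16. Its probe (ILMN_2724709) read 8.62, 9.30 and 9.65 as lowest, median and highest in knockout tumours, against 8.15, 8.94 and 9.65 in intact tumours. Intact tumours 4 and 6 lay below every knockout tumour, and intact tumour 3 matched knockout tumour 4 at the top. The difference was 0.41 (SE 0.25, 95% interval -0.12 to 0.94, limma adjusted p = 0.544), or 1.33-fold (0.918 to 1.92). It was 0.94 with age as a covariate and 0.068 with column position in the fit. It was -0.40 within the first 6 columns, against 0.54 within the last 6.

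Nkx2-2 encodes a homeodomain factor that promotes the differentiation of progenitors into oligodendrocytes. Its brighter probe (ILMN_1221619, gene on chromosome 2) read 10.89, 11.14 and 11.87 as lowest, median and highest in knockout tumours, against 9.81, 10.59 and 11.34 in intact tumours. Its second probe (ILMN_3129849) read 8.02, 8.05 and 8.34 in knockout tumours, against 6.79, 7.57 and 8.12 in intact tumours. On both probes every knockout tumour lay above the intact median, and intact tumour 1, the highest intact tumour on each, reached into the knockout range. The brighter probe averaged 11.23 ± 0.38 in knockout tumours against 10.58 ± 0.57 in intact tumours (SD of 6), higher by 0.65 (SE 0.26, 95% interval 0.095 to 1.21), or 1.57-fold (1.07 to 2.31). Its unadjusted p in limma was 0.0249 and its adjusted p 0.350. The second probe differed by 0.59 (SE 0.21, limma adjusted p = 0.263 over all probes). Only intact tumour 3 stood for its group in the first 6 columns, and only knockout tumour 1 in the last 6. The brighter probe's difference was 0.47 within the first 6 columns and 0.43 within the last 6, above 0 in both. It was 0.45 with column position in the fit (SE 0.35, limma adjusted p = 0.843) and 0.53 within the shared-digit set. For the second probe these fits gave 0.60 and 0.26.

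Gpr17 encodes a G-protein-coupled receptor of committed oligodendrocyte precursors, which is lost again as they mature. Its probe (ILMN_3160970, gene on chromosome 18) read 11.83, 12.96 and 13.21 as lowest, median and highest in knockout tumours, against 10.62, 12.46 and 13.47 in intact tumours. The lowest knockout value was in tumour 4 and the lowest intact value, well under all the others, was in intact tumour 4, while intact tumours 1 and 5 had the highest values of all. The difference was 0.36 (SE 0.42, 95% interval -0.54 to 1.25, limma adjusted p = 0.770), and without intact tumour 4 it was -0.0084. It was 0.0027 within the shared-digit set, 0.57 with column position in the fit and 0.71 with age as a covariate.

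Dll3, a Notch ligand that blocks the pathway from inside the cell and is used as a marker of proneural glioma, was near the limit of detection. Its probe (ILMN_2643777, gene on chromosome 7) was detected in 4 of 6 knockout and 4 of 6 intact tumours. It read 4.55, 5.17 and 5.90 as lowest, median and highest in knockout tumours, against 4.59, 5.17 and 5.81 in intact tumours, so the groups covered the same range. The difference was 0.034 (SE 0.25, 95% interval -0.50 to 0.56, limma adjusted p = 0.972). It was -0.39 with column position and -0.35 with age in the fit.

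**Figure D2:**
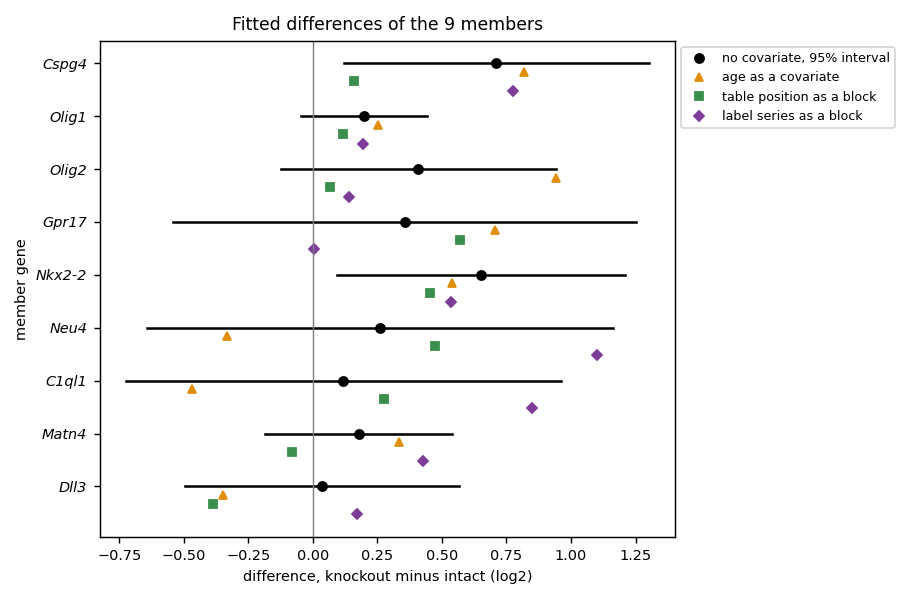
Fitted difference, knockout minus intact (horizontal axis, log2), of each member (vertical axis) with its 95% interval from the fit without covariates (circles and lines), with age as a covariate (triangles), with table position as a block (squares) and with the label sets as a block (diamonds). Only the intervals of Cspg4 and Nkx2-2 lie above 0, before any adjustment, and with table position as a block the Cspg4 value is 0.16 and that of Nkx2-2 is 0.45.

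The members varied to different extents from tumour to tumour. Gpr17 spanned 7.19-fold between its lowest and highest tumour, Neu4 6.61-fold, C1ql1 5.96-fold, Cspg4 4.30-fold and Nkx2-2 4.16-fold. Their SDs over the 12 arrays, from 0.58 for Nkx2-2 to 0.81 for Gpr17, were above those of 84.1% to 93.9% of all genes tested. Olig1 was at the other end, with a span of 1.47-fold and an SD above that of 2.38% of genes, and Matn4 spanned 1.97-fold. Olig2 spanned 2.84-fold and Dll3 2.56-fold. Averaged over the 9 members, the deviation from each gene's own mean ran from -0.21 in knockout tumour 4 to 0.43 in knockout tumour 5, against -0.62 in intact tumour 4 to 0.39 in intact tumour 5. Intact tumours 2, 4 and 6 lay lowest, at -0.47, -0.62 and -0.46. Intact tumours 3 and 5 lay among the knockout tumours, at 0.22 and 0.39.

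**Figure D3:**
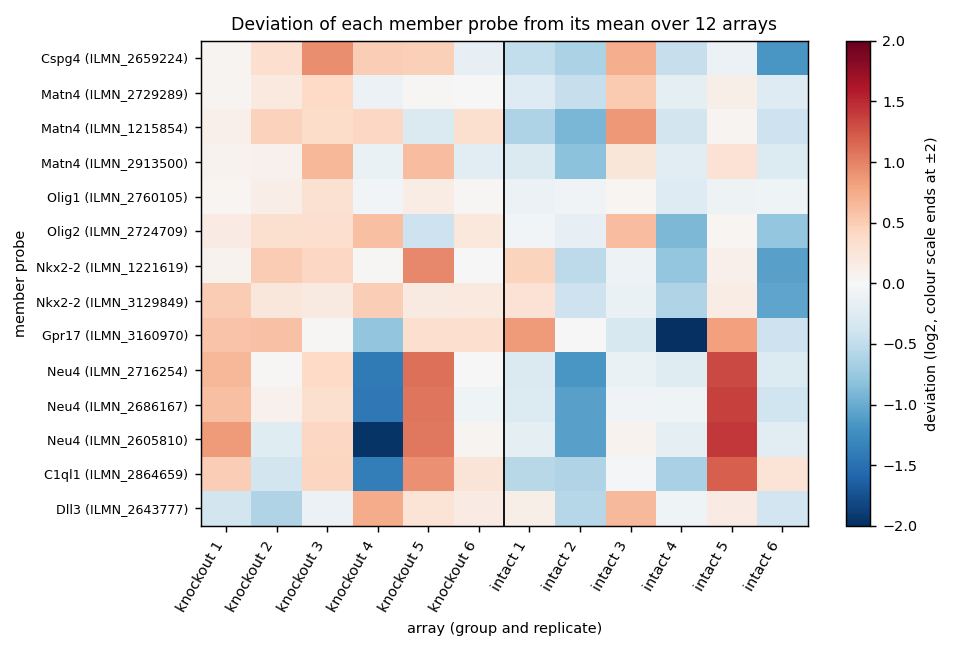
Deviation of each of the 14 member probes (vertical axis) from its mean over 12 arrays (colour, log2, red above and blue below the mean) on each array (horizontal axis, 6 knockout left of the line and 6 intact right of it). The Neu4 probes and C1ql1 share their extremes, low in knockout tumour 4 and high in intact tumour 5. Cspg4 and the Matn4 probes ILMN_2729289 and ILMN_1215854 are high in intact tumour 3, where Matn4 probe ILMN_2913500 deviates by 0.24 only.

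Across the 12 tumours, 2 pairs of members were correlated after adjustment over all 36 pairs (permutation test, 100000 resamples, two-sided, Benjamini-Hochberg). Neu4 and C1ql1 had a Pearson r of 0.914 (permutation p = 0.0001, adjusted p = 0.0036) and a Spearman rho of 0.874 (permutation p = 0.00053). Without the 2 tumours farthest from the Neu4 median, intact 5 and knockout 4, r was 0.815. It was 0.966 within the 6 knockout tumours and 0.857 within the 6 intact ones, and 0.961 and 0.871 within the first and the last 6 columns. The other Neu4 probes gave 0.926 and 0.886 with C1ql1.

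Cspg4 and Matn4 had a Pearson r of 0.808 (permutation p = 0.00139, adjusted p = 0.025) and a Spearman rho of 0.832 (permutation p = 0.0013). Without intact 6 and knockout 3, the 2 tumours farthest from the Cspg4 median, r was 0.778. It was 0.574 within knockout and 0.884 within intact tumours, and 0.629 and 0.711 within the first and the last 6 columns. On values centred within each group r was 0.807, with an adjusted p of 0.135 by the permutation test. The other Matn4 probes gave 0.750 and 0.748 with Cspg4.

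Of all 36 pairs 30 had an r above 0, with a median of 0.41, and 9 had an unadjusted permutation p below 0.05. The order of the values set Cspg4 beside Matn4, Olig1 (r = 0.72, permutation adjusted p = 0.0889), Olig2 (r = 0.71, adjusted p = 0.0889) and Nkx2-2 (r = 0.68, adjusted p = 0.101), of which Matn4 alone passed with this scaling. These values include the difference between the groups. Centred within each group, r with Cspg4 was 0.53 for Olig1, 0.62 for Olig2 and 0.51 for Nkx2-2 (permutation adjusted p = 0.372, 0.372 and 0.427). Gpr17 had its highest value with Nkx2-2 (r = 0.61, permutation adjusted p = 0.163) and 0.11 with Cspg4. Olig2 and Neu4 had an r of -0.11, and Olig1 and Olig2, which are neighbours in the genome, 0.48. The sign of both differed between the groups. Olig2 with Neu4 had -0.84 within the 6 knockout tumours and 0.19 within the 6 intact ones. Olig1 with Olig2 had -0.30 within knockout and 0.79 within intact tumours. All points are bulk samples that share a normalization, and the part of cell mixture in these correlations was not tested.

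**Figure D4:**
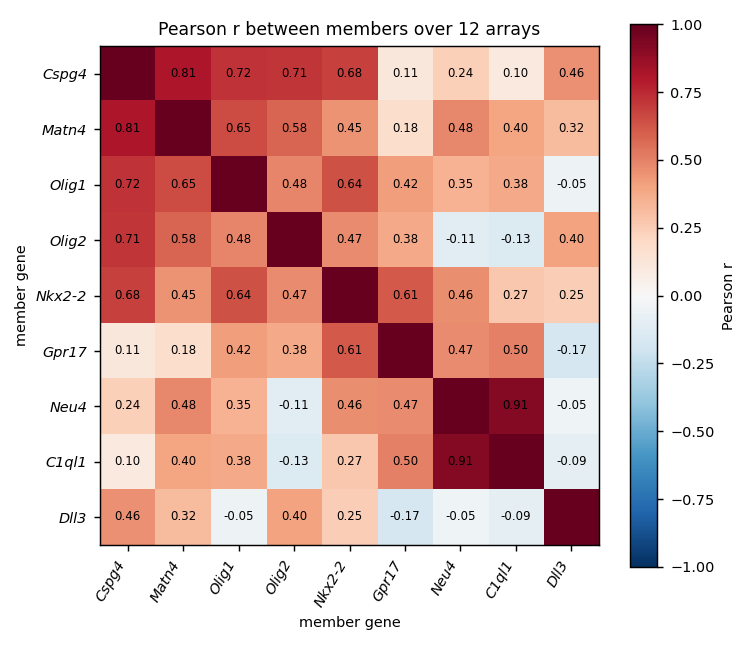
Pearson r between the members over the 12 arrays, with members on both axes and r as colour and number. Neu4 with C1ql1 (0.91) and Cspg4 with Matn4 (0.81) are the pairs that passed adjustment, and Dll3 and Gpr17 have the lowest value, -0.17.

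Probes of 1 gene gave a measure of how well single values can be read. The 3 Neu4 probes tracked each other closely, with r of 0.994, 0.978 and 0.975. The Nkx2-2 probes had an r of 0.806 (permutation adjusted p = 0.00225 over 7 such pairs). The Matn4 probes were less alike, with r of 0.858 and 0.795 of the brightest probe with the others and 0.544 between ILMN_1215854 and ILMN_2913500 (permutation adjusted p = 0.0675).

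The genes whose pattern was most like each member were picked by Pearson r over the 12 arrays among 9189 genes detected on every array, and are given as a description, being the highest of many values. Cspg4 was most like Trib1 (r = 0.959), Zfp27 (0.939) and Slc30a6 (0.930). Matn4 was most like Vezf1 (0.912), Gpt2 (0.908) and Tceal3 (0.890), and Neu4 most like S100a1 (0.945), Ankfy1 (0.879) and Gosr2 (0.878). The list of C1ql1 held Mpdz (0.887), Ifi213 (0.883) and Adcy6 (0.883). Olig1 went with Palld (0.906), Fam222b (0.904) and Ccdc50 (0.899). Olig2 went with Fam91a1 (0.916), Pkn2 (0.912) and Papola (0.912), and Nkx2-2 with Rad1 (0.952), Kctd12b (0.921) and Traf4 (0.920). Gpr17 was closest to LTO1 (0.912), Tmem273 (0.910) and Pgpep1 (0.908), where leaving out 1 array took r to 0.757 for LTO1. Dll3 was closest to Ccdc97 (0.890), Snx5 (0.874) and Patz1 (0.860).

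The other surface and matrix genes of progenitors lay on the same side as the members, again with 0 called. Of 17 listed, 16 were measured, 15 had a difference above 0 and the median was 0.20. Pdgfra, the receptor for the growth factor that drives progenitor division, was the exception, at 13.25 ± 0.26 in knockout tumours against 13.29 ± 0.46 in intact tumours (SD of 6), which differ by -0.039 (SE 0.21, limma adjusted p = 0.960). Sulf2, a sulfatase of heparan sulfate chains, had the smallest p of the list, with a difference of 0.41 (SE 0.18, limma adjusted p = 0.401). Cacng4, an AMPA receptor subunit partner, had 0.60 (SE 0.32, adjusted p = 0.488 in limma), Lims2, an adaptor of integrin adhesions, 0.42 (SE 0.22, adjusted p = 0.486) and Rlbp1, a retinoid-binding protein, 0.69 (SE 0.37, adjusted p = 0.489).

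The other transcription factors of the lineage showed no common side. Of the 14 measured, 8 had a difference above 0, the median was 0.040 and 0 were called. Sox10, the factor that maintains the lineage, was at 13.48 ± 0.18 in knockout tumours against 13.34 ± 0.31 in intact tumours (SD of 6), which differ by 0.13 (SE 0.16, limma adjusted p = 0.772). Tcf12, a partner of Olig factors on the E-box, had 0.54 (SE 0.21, limma adjusted p = 0.338), and Sox4 0.39 (SE 0.21, adjusted p = 0.491). Id4, which keeps such factors from DNA, had -0.60 (SE 0.38, limma adjusted p = 0.564) and Sox6 -0.25 (SE 0.23, adjusted p = 0.696).

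Later stages of the lineage showed no common side or lay opposite to the members. Of 9 genes of newly formed oligodendrocytes 6 lay above 0, with a median of 0.0092 and 0 called. Among them Myrf, the factor that switches on myelin genes, was detected in 4 of 6 knockout and 0 of 6 intact tumours (limma adjusted p = 0.292). Myrf passed the detection filter through knockout arrays only, so its side in this count is partly set by the filter. Tcf7l2, an effector of Wnt signalling in these cells, had -0.69 (SE 0.35, limma adjusted p = 0.465). All 11 measured myelin genes had a difference below 0, with a median of -0.46 and 0 called. Mog, a protein of the myelin surface, had -1.14 (SE 0.53, limma adjusted p = 0.423). Aspa, the enzyme that splits N-acetylaspartate, was detected in 0 of 6 knockout and 3 of 6 intact tumours. It passed the detection filter through intact arrays only, so its side in the count of 11 is partly set by the filter. Summed myelin intensity ran from 21603 to 67442 in knockout and from 30198 to 71139 in intact tumours, so the groups overlapped widely.

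**Figure D5:**
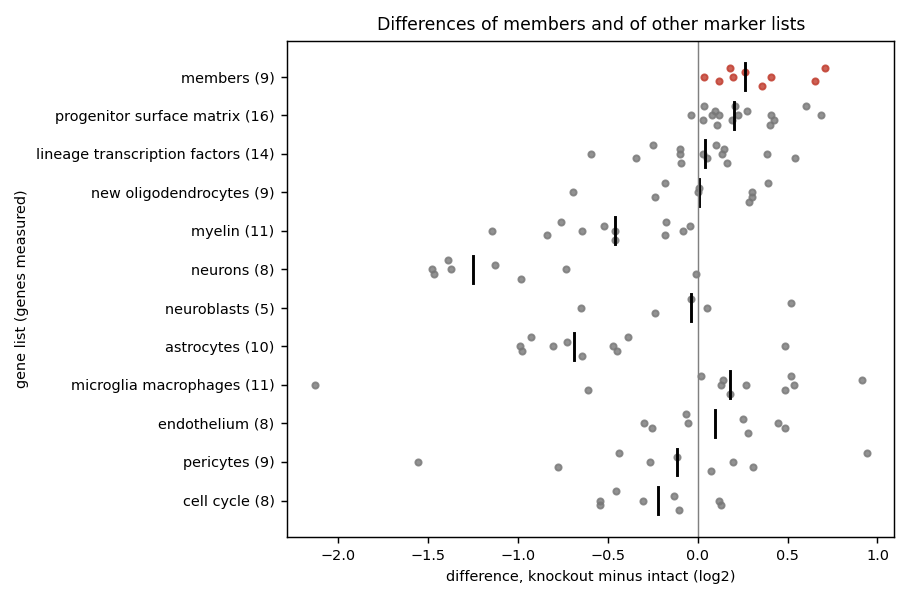
Difference, knockout minus intact (horizontal axis, log2), of each measured gene (points) in the members and in 11 marker lists (vertical axis, number of genes measured in brackets), with the list's median as a bar. The members lie to the right of 0 with a median of 0.26, as do the progenitor surface genes (0.20) except Pdgfra, and the myelin, neuron and, except S100b, astrocyte genes lie to the left with medians of -0.46, -1.25 and -0.69; 0 genes on these lists were called.

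Markers of the surrounding brain also differed between the groups in their averages. All 8 measured neuronal genes lay below 0, with a median of -1.25 and 0 called. Of these Nefl was near 0, at -0.0074 (SE 0.16), and was detected in 1 of 6 knockout and 3 of 6 intact tumours. The summed intensity of the 8 genes ran from 1661 to 12832 in knockout and from 2118 to 21968 in intact tumours. Camk2a, a kinase of excitatory synapses, had -1.47 (SE 0.52, limma adjusted p = 0.292) and Rbfox3, a nuclear marker of mature neurons, -1.39 (SE 0.64, adjusted p = 0.415). Intact tumours 2, 4 and 6, which had the lowest member averages, had the highest neuronal averages of the 12, with deviations of 1.24, 0.99 and 1.77. Knockout tumour 4 had the lowest member average of its group and also the lowest neuronal average of the 12, -1.65. The part of brain tissue around the tumour in the member values was not tested.

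Of 10 astrocyte genes 9 lay below 0 (median -0.69, 0 called), with summed intensities of 11105 to 36232 in knockout and 20960 to 43208 in intact tumours. The glutamate transporters Slc1a2 and Slc1a3 had -0.93 (SE 0.25, limma adjusted p = 0.212) and -0.64 (SE 0.25, adjusted p = 0.340), and the calcium-binding protein S100b was the gene above 0, at 0.49 (SE 0.19, adjusted p = 0.350). Of 11 microglial and macrophage genes 9 lay above 0 (median 0.18, 0 called), while P2ry12, a purinergic receptor of resting microglia, had -2.13 (SE 0.57, limma adjusted p = 0.212) and Itgam -0.61 (SE 0.20, adjusted p = 0.269). Ptprc, counted among the 9, was detected in 4 of 6 knockout and 0 of 6 intact tumours. It passed the detection filter through knockout arrays only, so its side in the count of 9 is partly set by the filter. Of 8 endothelial genes 4 lay above 0 (median 0.098), with Emcn at 0.48 (limma adjusted p = 0.409). Of 5 neuroblast genes 2 did (median -0.036), with Dcx, a microtubule protein of migrating neuroblasts, at 0.52 (SE 0.21, limma adjusted p = 0.364). Of 8 cell cycle genes 2 lay above 0 (median -0.22), and none of these 3 lists had a gene called.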

How the data were processed

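Per the labels, each array held RNA of 1 brain glioma, extracted with Trizol and a column clean-up and labelled with biotin. Per the file headers, the authors deposited for each array and probe a linear signal intensity without normalization and a detection p-value. Their second deposited table holds intensity values of 45134 probes with a normalization that the sources used here do not state, and served as an alternative. Its array medians were 145 to 150.2, its values are linear and not centred, and the rank correlation with the same array's signals was at least 0.99995. The sources used here do not say how the deposited p-value of detection was obtained.

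Probes were named through the supplied platform annotation with symbols updated against the RefSeq table of GRCm38.p6, and 34772 of 45135 had 1 gene. Signals were processed with neqc in limma 3.58.1 (R 4.3.3), which corrects background, adds 16 to each signal, equalizes quantiles between arrays and takes log2. Probes with a detection p below 0.05 on at least 3 of 12 arrays were kept (28002), and a gene was represented by the kept probe with the highest mean (14155 genes). Groups were compared by lmFit and eBayes (two-sided, Benjamini-Hochberg at 0.05), also over all kept probes. In the text, a probe detected in 0 tumours of a group is described by its detection counts, without a fold difference. Correlations were tested with Python 3.11.15 and scipy 1.17.1. The number of columns of other samples was 0. The scripts were tested on simulated data. Replicate numbers follow the order of accessions within a group and only name the animals.

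The members and the lists were chosen with earlier results of these data known. Named were every member, Nr2e1, Pdgfra, Sox10 and the 3 genes most like each member, leaving out clone and predicted names. The 4 genes of smallest p on each of the progenitor lists and up to 2 on each other list were also named. S100b and Acta2 were added because their differences were opposite to those of the genes named by p on their lists. Ptprc was added because it passed the detection filter through knockout arrays only, and Nefl because its difference was near 0. Some genes that the rule takes are left out of the text. Alternatives changed the background correction, scaling, filter, probe rule, array weights, covariates and arrays included.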

Additional observations from a re-analysis of the deposited data

How the results depend on the processing

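Under 24 alternatives, 12 of which left out 1 array each, 0 members were called, as were 0 member probes under the 23 that give probe values, and Cspg4, Olig1, Olig2, Nkx2-2 and the probes ILMN_3129849 and ILMN_2913500 kept a difference above 0. The lowest limma adjusted p over the alternatives was 0.169 for Cspg4 and 0.172 for Nkx2-2. The number of members above 0 was 6 to 9 and the member median 0.16 to 0.46. Of 330 comparisons of a member difference with an alternative, 22 changed sign, and the cause was not tested. With column position as a block, Matn4 was -0.080, Dll3 -0.39 and ILMN_1215854 of Matn4 -0.032. With age as a covariate, Neu4 was -0.33, its probes ILMN_2605810 and ILMN_2686167 -0.53 and -0.39, C1ql1 -0.47 and Dll3 -0.35. With median scaling, ILMN_2605810 was -0.0089. Leaving out 1 array gave ranges of -0.11 to 0.17 for Dll3, -0.053 to 0.40 for C1ql1, -0.0084 to 0.56 for Gpr17, -0.16 to 0.45 for ILMN_2605810 and -0.017 to 0.49 for ILMN_2686167.

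Of all genes tested, 1 was called higher and 1 lower. The count of higher genes was 0 without background correction, with normexp at an offset of 50, with median scaling, in the authors' value table, with detection on all arrays, with probes of a gene averaged, with array weights, with column position or label set as a block and with age as a covariate. It was 2 with no filter on dim probes and 0 to 88 when 1 array was left out, with 88 without intact 1, 4 without intact 2, and 2 without knockout 1 or knockout 3. The count of lower genes was 0 with detection on all arrays and 1 to 15 when 1 array was left out, with 15 without intact 1 and 3 without knockout 1. With median scaling 3 pairs of members passed, the added one being Cspg4 with Olig1 (r = 0.797, permutation adjusted p = 0.0217). On values centred within groups, 1 pair passed, and Cspg4 with Matn4 had an r of 0.807 (permutation adjusted p = 0.135). The other Neu4 and Matn4 probes were set against C1ql1 and Cspg4 after the pairs had been seen. No paired analysis was possible because the labels give no replicate numbers shared between the groups. Dll3 was close to background and Olig1 close to the highest signals, so both limit what a difference can show.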
